A study of Mus musculus with 6 samples.

Results

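Ion channel genes were followed in RNA sequencing of the biliary epithelium of mouse liver, the lining of its bile ducts. Members were the rows of the gene table whose symbol begins with the root of a voltage-gated sodium, potassium or calcium channel, an epithelial sodium or acid-sensing channel, a CLC, CLCA or CLIC chloride channel protein, a TRPC, TRPM or TRPV channel, a P2X receptor, an HCN channel or a Piezo channel, without the non-coding Kcnq1ot1. The rule took 167 of the 25302 rows. Of these, 2 are not channel subunits: Trpc4ap encodes an adaptor protein, and Kcnab3os is antisense to Kcnab3. The comparison was between 3 Control samples of genotype Sox9fl/fl and 3 Sox9cKO samples of genotype Sox9fl/fl:AlbCre+/-, so both groups carried floxed Sox9 alleles and the Cre recombinase was present in the Sox9cKO group alone. AlbCre is expressed from the albumin promoter, which is active in the liver precursors of both hepatocytes and biliary cells. No age, sex or source animal of a sample was taken from the labels, and whether the samples of a group came from separate mice is not stated there, so p-values measure the spread between these samples, which may in part be technical.

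Ion channels are pores that let sodium, potassium, calcium or chloride cross a membrane, and they open in response to voltage, ligands, acid, stretch or internal messengers. In bile duct epithelium, chloride leaving through apical channels drives the secretion of fluid and bicarbonate, potassium channels keep the membrane voltage that sustains that exit, and calcium entry couples stretch and nucleotides in bile to secretion. Voltage-gated sodium channels are best known from nerve and muscle, whereas the epithelial sodium channel takes up sodium in kidney, lung and colon. Scn7a encodes an atypical member of the voltage-gated sodium channel family, known for sensing extracellular sodium in the brain and for its presence in glia.

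Total reads per sample ran from 11883496 to 16191990, and values are given as normalized reads, the reads of a gene divided by a sample factor. Sox9 had 6211, 6043 and 6293 normalized reads in Control replicates 1, 2 and 3 and 3363, 3165 and 3340 in Sox9cKO replicates 1, 2 and 3 (log2 fold change -0.91, SE 0.0952, adjusted p = 0.00501, limma), so its transcript was lower but not absent. All 18 biliary markers on the list used were measured, with Epcam at 5501 to 8249 normalized reads in every sample. Summed endothelial markers (14 genes) ranged from 1755 to 38468 in Control and from 6257 to 39302 in Sox9cKO, with Control 3 and Sox9cKO 3 low in their groups. Summed hepatocyte markers (16 genes) ranged from 23107 to 36042 and from 32132 to 47755, and without Alb from 5724 to 8406 and from 10734 to 15074. Most of the sum without Alb was Hnf4a, at 3802 to 6320 in Control and 6994 to 10056 in Sox9cKO. Serpina1c had a mean of 211 in Control and 1802 in Sox9cKO. Of the 15 tested hepatocyte markers, 12 had a positive and 3 a negative log2 fold change. Summed leukocyte and Kupffer cell markers (13 of 16 genes) were 1130 to 1409 and 1653 to 1882, and summed mesothelial markers (8 genes) 960 to 994 and 1168 to 2187, so these sums did not overlap between groups. A single gene set both directions. Without Csf1r the leukocyte and Kupffer sums were 333 to 704 in Control and 243 to 387 in Sox9cKO, and 9 of the 11 tested markers of that list had a negative log2 fold change (median -0.45). Without Msln the mesothelial sums were 592 to 721 and 341 to 528, lower in Sox9cKO. Sums of the 14 stellate and fibroblast markers were 3744 to 4628 and 4523 to 6300, and of the 12 smooth muscle and pericyte markers 1361 to 2409 and 1516 to 2243. The part of these other cell types in the results was not tested, except where a value is given beside a gene. In bulk samples, fewer cells of a type and less RNA per cell cannot be told apart.

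A gene was tested where its mean over the 6 samples was at least 10 normalized reads, with limma on log2(normalized reads + 1) and Benjamini-Hochberg adjustment over all 17153 genes tested. Log2 fold changes are Sox9cKO over Control on that scale, which understates the change of genes with few reads. Of the 167 ion channel genes, 98 were tested and 9 passed at adjusted p under 0.05, which is 9.18% of those tested, beside 2.97% of all genes tested. Higher in Sox9cKO were 8, beside 2.03% of all genes, and 1 was lower, beside 0.939%. The higher genes included Scn7a, Scn9a, Scn3a, Kcnj11, Kcnh7, Cacna1h and Cacnb3, and the lower gene was Kcnk5. With the replicate number as a block, 19 passed (13 higher, 6 lower), beside 8.05% of all genes (5.06% higher and 2.99% lower). On the recovered reads, edgeR called 11 members, beside 2.86% of all genes, and DESeq2 called 19, beside 7.08%. Unadjusted p was under 0.05 for 30 members, beside 17.8%. In 37 of the 98 tested members all Sox9cKO values lay on 1 side of all Control values (19 higher, 18 lower), beside 24.2% of all genes (13.4% higher and 10.8% lower). The median log2 fold change was 0.024 over the tested members and 0.036 over all genes tested.

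**Figure D1:**
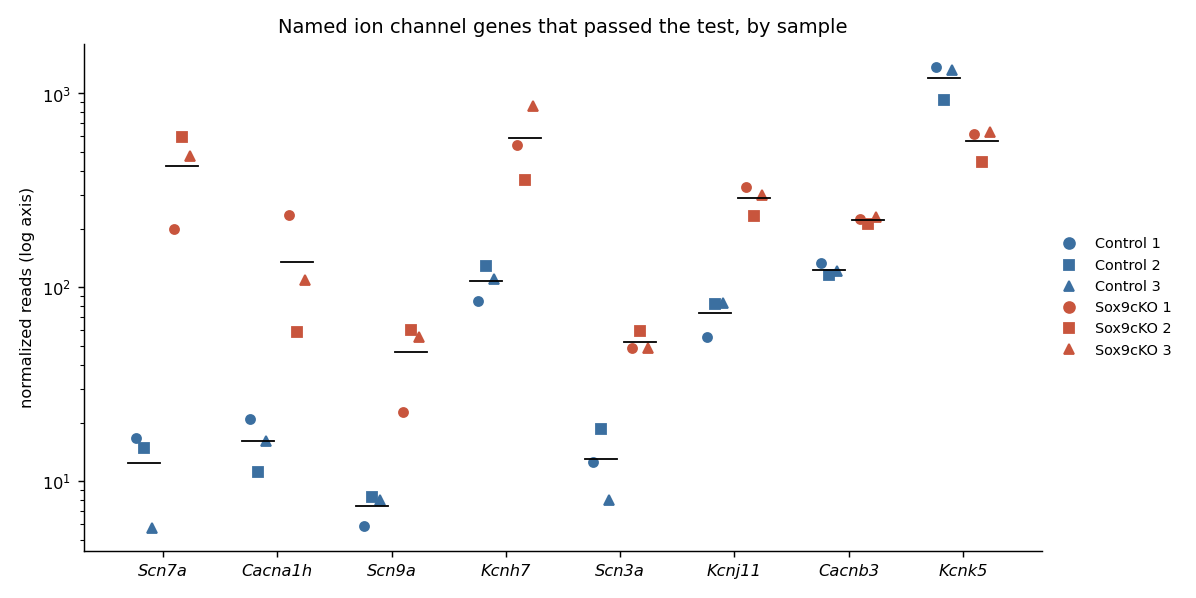
Normalized reads (log axis) of named ion channel genes that passed the test, for Control (blue) and Sox9cKO (red) replicates 1, 2 and 3 (circle, square and triangle), with a bar at each group mean. No gene shown has an overlap between groups: Kcnk5 is lower in Sox9cKO and the others are higher.

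The voltage-gated sodium channel alpha subunits, each a complete pore, held 4 of the 9 genes that passed. Of the 10 alpha subunits in the table, 8 were tested, 4 passed as higher and none as lower. With the replicate block 5 passed as higher and 1 as lower.

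Scn7a had 16.8, 14.8 and 5.76 normalized reads in Control replicates 1, 2 and 3 and 199, 594 and 473 in Sox9cKO replicates 1, 2 and 3. Every Sox9cKO sample was thus above every Control sample by a wide margin, with Sox9cKO 1 the lowest of its group. The group means were 12.5 ± 5.90 and 422 ± 203 (SD, n = 3), and the log2 fold change was 4.95 (SE 0.517, 95% interval 3.74 to 6.17, adjusted p = 0.00501, limma). Between samples with the same number the difference of log2 values was 3.49, 5.23 and 6.13. Among the 10 alpha subunits, compared as normalized reads per kilobase of exon, Scn7a made up 7.53%, 2.51% and 1.5% of the summed level in Control replicates 1, 2 and 3, and 31.4%, 53.5% and 48.5% in Sox9cKO. It had the highest level per kilobase of the 10 in each Sox9cKO sample, at 27.1, 81.0 and 64.5, whereas Scn4a was highest in each Control sample, at 14.8, 61.0 and 30.1. The summed level of all 10 was 30.4, 80.5 and 52.3 per kilobase in the Control samples and 86.4, 152 and 133 in the Sox9cKO samples, given as values with no test. Without Scn7a the sums were 28.1, 78.4 and 51.5 in Control and 59.3, 70.5 and 68.6 in Sox9cKO, and those ranges overlap.

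Values of other cell types' markers stood beside Scn7a as follows. Of 18 Schwann cell, glial and neuronal markers, 12 have values here, 8 were tested and 0 passed (adjusted p under 0.05, limma). Unadjusted p was under 0.05 for 3 of them, beside 17.8% of all genes tested. With the replicate block 2 passed, beside 8.05%, and 0 passed with edgeR and 0 with DESeq2. Their summed level was 3517 to 3785 in Control and 2846 to 3908 in Sox9cKO, and it came mostly from Erbb3 and Mbp. Among the 8 tested markers the groups did not overlap for 2 that were higher and 2 that were lower in Sox9cKO. Over all genes tested these shares were 13.4% and 10.8%. The 2 markers that passed with the block were both higher. Among the 4 under the filter, 2 were lower in Sox9cKO without overlap and none was higher without overlap. Over all genes under the filter these shares were 19.7% and 3.07%. For endothelial RNA, Scn7a was 473 in Sox9cKO 3, where the endothelial sum was 6257, and 14.8 in Control 2, where it was 38468.

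Scn9a and Scn3a are channels of sensory and embryonic neurons. Scn9a had 5.88, 8.35 and 8.06 normalized reads in Control and 22.9, 60.5 and 55.5 in Sox9cKO replicates 1, 2 and 3 (log2 fold change 2.38, SE 0.442, adjusted p = 0.0375, limma). Scn3a had 12.6, 18.6 and 8.06 in Control and 48.8, 59.5 and 48.7 in Sox9cKO (log2 fold change 1.98, SE 0.354, adjusted p = 0.0323, limma). Neither gene overlapped between groups, but both calls depended on which samples were included. Scn9a passed without Sox9cKO 1 (adjusted p = 0.0215) and lost its call without any other single sample, at adjusted p 0.0755 to 0.152. Scn3a passed without Control 2 (adjusted p = 0.0289) and lost its call without any other single sample, at 0.0813 to 0.128.

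Scn8a, a sodium channel found widely in neurons, had 129, 121 and 206 normalized reads in Control and 377, 277 and 439 in Sox9cKO. The groups did not overlap, and the log2 fold change of 1.27 (SE 0.264) missed the threshold without the block (adjusted p = 0.054, limma) and passed with it (0.00578). Scn4a, the skeletal muscle channel and the highest alpha subunit per kilobase in Control, had 104, 430 and 212 in Control and 109, 162 and 134 in Sox9cKO, and the groups overlapped (log2 fold change -0.67, SE 0.473, adjusted p = 0.525). Scn2a stayed near the filter in both groups, at 13.4, 9.28 and 11.5 and at 9.95, 11.3 and 9.06 (adjusted p = 0.874). The other values ran the opposite way. Scn11a, a sensory neuron channel, had 5.04, 26.0 and 21.9 in Control and 0, 3.78 and 4.53 in Sox9cKO. Its log2 fold change of -2.38 (SE 0.875) had an adjusted p of 0.214 without the block and 0.0306 with it. Scn10a and Scn1a were under the filter: Scn10a had 5.88, 4.64 and 6.91 in Control and 0.995, 0 and 1.13 in Sox9cKO, and Scn1a 4.20, 3.71 and 6.91 and then 0.995, 0.945 and 0. Each Sox9cKO value of these last 2 genes was at or under 3 reads, the limit that a count of 0 allows, and intervals and limits of this kind cover counting error only.

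**Figure D2:**
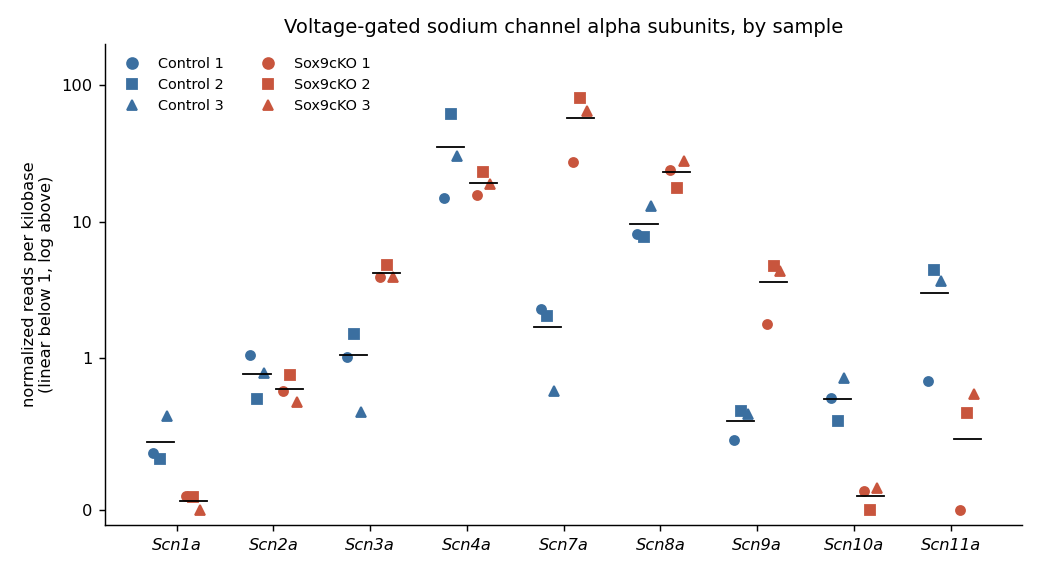
Normalized reads per kilobase of exon (vertical axis, linear below 1 and logarithmic above) of 9 voltage-gated sodium channel alpha subunits in each sample, Control in blue and Sox9cKO in red. Scn7a, Scn8a, Scn9a and Scn3a lie higher in all 3 Sox9cKO samples, and Scn11a, Scn10a and Scn1a lie lower in all 3.

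Several of these genes sit in 1 array, and its members differed in direction. In the RefSeq table for GRCm38.p6, the protein-coding genes on chromosome 2 follow each other as Scn3a, Scn2a, Csrnp3, Galnt3, Ttc21b, Scn1a, Scn9a and Scn7a. Scn3a, Scn9a and Scn7a rose, Scn2a did not pass, and Scn1a was lower in each Sox9cKO sample. Galnt3 (log2 fold change 0.40, adjusted p = 0.183, limma) and Ttc21b (0.10, adjusted p = 0.825) lie within the array and did not pass, and Csrnp3 was under the filter. These 3 sodium channel genes next to each other at the end of the chromosome 2 array are shown by the 250 bases before their annotated start, because they are neighbours with unlike values, on the minus strand of GRCm38.p6 and credited to RefSeq (the deposited reads were placed on GRCm39).
Scn7a, chr2:66784911-66785160: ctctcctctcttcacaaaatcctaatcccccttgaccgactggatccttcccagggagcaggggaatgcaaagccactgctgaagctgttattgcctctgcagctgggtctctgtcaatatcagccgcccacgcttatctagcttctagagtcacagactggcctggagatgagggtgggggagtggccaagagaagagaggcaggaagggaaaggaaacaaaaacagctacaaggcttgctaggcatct
Scn9a, chr2:66634963-66635212: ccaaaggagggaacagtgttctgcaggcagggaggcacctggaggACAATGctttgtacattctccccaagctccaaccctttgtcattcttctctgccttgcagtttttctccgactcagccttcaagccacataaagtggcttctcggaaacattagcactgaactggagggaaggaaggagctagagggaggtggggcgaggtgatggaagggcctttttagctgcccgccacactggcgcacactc
Scn1a, chr2:66440838-66441087: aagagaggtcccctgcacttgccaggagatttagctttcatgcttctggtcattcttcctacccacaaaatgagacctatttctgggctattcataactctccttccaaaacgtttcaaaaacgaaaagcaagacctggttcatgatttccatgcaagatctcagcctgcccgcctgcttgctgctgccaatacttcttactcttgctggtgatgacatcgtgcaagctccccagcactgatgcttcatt
Capitals mark a match to ACAATG or AACAAT, cores that SOX proteins are known to bind, searched on both strands of the 250 bases before and 50 after each start (the motifs can overlap each other). Scn9a held 1 match, 205 bases before its start, and Scn7a and Scn1a held none in these windows. Over the 123 members matched by symbol, 13.1% of 168 promoters held either motif, beside 18.7% of all 32851 promoters in the table, and of the members that passed the test 1 of 6 promoters (5 genes matched) held one. The median share of G and C bases was 57.8% in the 168 promoters and 52.7% in all promoters. Its part in the difference between the motif shares was not tested. A match is a description of letters, and no binding was measured.

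The sodium channel beta subunits are membrane proteins that bind the alpha subunit and set its gating and surface level. Scn2b was under the filter, with 10.9, 4.64 and 20.7 normalized reads in Control and 4.97, 1.89 and 3.40 in Sox9cKO, and Scn3b and Scn4b were at most 4.97 in every sample.

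The epithelial sodium channel is built of alpha, beta and gamma subunits encoded by Scnn1a, Scnn1b and Scnn1g. Scnn1a had 82.4, 105 and 99.1 normalized reads in Control and 220, 153 and 213 in Sox9cKO, with no overlap. Its log2 fold change of 1.01 (SE 0.208) missed the threshold without the block (adjusted p = 0.052, limma) and passed with it (0.0352). The partner subunits were under the filter: Scnn1b had 8.41, 19.5 and 6.91 in Control and 2.98, 5.67 and 5.66 in Sox9cKO, and Scnn1g 6.72, 2.78 and 4.61 and then 4.97, 3.78 and 1.13. Among the acid-sensing channels, which are relatives of the epithelial sodium channel, Asic3 was the 1 of 4 tested, and its values overlapped (8.41, 24.1 and 10.4 in Control and 9.95, 2.84 and 5.66 in Sox9cKO, adjusted p = 0.389).

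Potassium channels held 3 of the 9 genes that passed, from 3 different families. Kcnj11 and Kcnh7 were higher in Sox9cKO and Kcnk5 lower. Among all potassium channel genes, the highest levels per kilobase belonged to Kcnk1, Kcnn4, Kcnk5, Kcnq1 and Kcne3, and of these Kcnk5 passed.

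Kcnj11 encodes the pore of the ATP-sensitive potassium channel, known for coupling metabolism to membrane voltage in pancreatic beta cells. It had 55.5, 82.6 and 83.0 normalized reads in Control and 330, 233 and 299 in Sox9cKO replicates 1, 2 and 3, with no overlap between groups. The log2 fold change was 1.96 (SE 0.231, 95% interval 1.42 to 2.50, adjusted p = 0.00699, limma). Abcc8, the gene next to Kcnj11 on chromosome 7, encodes the sulfonylurea receptor that surrounds this pore; it is outside the rule and was looked up after the values of Kcnj11 were seen. Abcc8 had 38.7, 80.7 and 87.6 in Control and 291, 556 and 383 in Sox9cKO (log2 fold change 2.59, SE 0.368, adjusted p = 0.0137, limma), so both parts of the channel were higher in every Sox9cKO sample. Abcc9, the receptor subunit of the vascular form, had 207, 457 and 100 and then 350, 249 and 215 (log2 fold change 0.33, adjusted p = 0.793). Of the 14 inward rectifier genes, 6 were tested, and Kcnj11 was both the highest per kilobase (20.0 in Control and 78.2 in Sox9cKO on average) and the family's member that passed.

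Kcnh7 encodes a voltage-gated potassium channel of the ERG group. It had 84.9, 129 and 111 normalized reads in Control and 539, 359 and 865 in Sox9cKO, with Sox9cKO 3 the highest sample and no overlap. The log2 fold change was 2.36 (SE 0.327, adjusted p = 0.0125, limma), and the call was lost without Control 1 (adjusted p = 0.0671) or Control 3 (0.0545). Kcnh7 overlaps Gca on the opposite strand; Gca had a log2 fold change of -0.11 (adjusted p = 0.785), and whether counting used strand is not stated. Of the 28 voltage-gated potassium channel alpha subunits, 16 were tested and Kcnh7 alone passed. Kcnh4, a related channel, had 25.2, 37.1 and 38.0 in Control and 3.98, 7.56 and 11.3 in Sox9cKO (log2 fold change -2.07, adjusted p = 0.0553 without the block and 0.0192 with it). Kcnq1, the pore of the epithelial channel that recycles potassium, was the highest of the alpha subunits per kilobase, and its values overlapped at 1122, 867 and 977 in Control and 1423, 761 and 906 in Sox9cKO (log2 fold change 0.01, 95% interval -0.54 to 0.57, adjusted p = 0.983). Kcnb2 (7.57, 36.2 and 24.2 in Control and 128, 32.1 and 62.3 in Sox9cKO) was among the largest differences that passed in neither fit (log2 fold change 1.69, adjusted p = 0.248).

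Auxiliary subunits bind the voltage-gated pores and change their gating. Kcne3, known as the partner that holds the Kcnq1 channel open in intestinal and airway epithelium, had 430, 270 and 301 normalized reads in Control and 119, 154 and 178 in Sox9cKO. Its groups did not overlap, and the log2 fold change of -1.13 (SE 0.234) had an adjusted p of 0.0532 without the block and 0.0359 with it. Kcnab1, a cytoplasmic beta subunit, had 259, 261 and 265 in Control and 365, 627 and 721 in Sox9cKO (log2 fold change 1.07, SE 0.25, adjusted p = 0.0779 without the block and 0.0253 with it). Of the 11 auxiliary genes 6 were tested and 0 passed without the block, 3 had an unadjusted p under 0.05, and edgeR called 1 and DESeq2 called 2.

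Kcnk5 encodes a background potassium channel of the K2P family that opens as the medium turns alkaline and is known from bicarbonate-transporting epithelia. It had 1368, 925 and 1318 normalized reads in Control and 619, 445 and 633 in Sox9cKO, with no overlap. The log2 fold change was -1.09 (SE 0.207, adjusted p = 0.0406, limma), and the differences between samples of the same number were close to each other at -1.14, -1.05 and -1.06. The call held without Control 2 (adjusted p = 0.0246) and was lost without any other single sample, at 0.0799 to 0.168. Kcnk1, the K2P gene with the highest level per kilobase, had 1788, 1439 and 1404 in Control and 2161, 870 and 1537 in Sox9cKO, with overlap (log2 fold change -0.11, 95% interval -0.84 to 0.62, adjusted p = 0.901). Of 10 K2P genes 4 were tested and Kcnk5 passed.

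Calcium- and sodium-activated potassium channels held 7 tested genes of 11, and 0 passed without the block (limma), with 4 at an unadjusted p under 0.05, 0 called by edgeR and 1 by DESeq2. Kcnn4, the calcium-activated channel of many secretory epithelia, was the highest of them, with 1443, 1616 and 2045 normalized reads in Control and 1296, 869 and 1241 in Sox9cKO (log2 fold change -0.59, SE 0.199, adjusted p = 0.184). Its groups did not overlap. Kcnn3, a small-conductance relative, had 28.6, 24.1 and 23.0 in Control and 53.7, 76.5 and 56.6 in Sox9cKO (log2 fold change 1.26, SE 0.257, adjusted p = 0.0518 without the block and 0.0383 with it). Among the HCN channels, which are opened by hyperpolarization, Hcn2 was the highest, and its values overlapped (45.4, 29.7 and 35.7 in Control and 35.8, 22.7 and 24.9 in Sox9cKO, adjusted p = 0.556).

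Voltage-gated calcium channels held the remaining 2 genes that passed, 1 pore and 1 regulatory subunit, both higher. Cacna1h encodes a T-type pore, which opens at low voltage. It had 21.0, 11.1 and 16.1 normalized reads in Control and 236, 58.6 and 110 in Sox9cKO, with Sox9cKO 1 far above the other two and no overlap with Control. The log2 fold change was 2.81 (SE 0.512, 95% interval 1.60 to 4.01, adjusted p = 0.0355, limma). The call held without Sox9cKO 2 (adjusted p = 0.0249) and was lost without any other single sample, at 0.0605 to 0.110.

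Cacnb3 encodes a cytoplasmic beta subunit that carries calcium channel pores to the membrane. It had 134, 116 and 121 normalized reads in Control and 226, 212 and 232 in Sox9cKO, with the 3 samples of each group close together and no overlap. The log2 fold change was 0.85 (SE 0.150, adjusted p = 0.0315, limma), the smallest of the 9, and the call was lost when any 1 of the 6 samples was left out, at adjusted p 0.0759 to 0.109. Of the 9 beta and gamma subunits 5 were tested, and Cacnb4 (21.9, 12.1 and 20.7 in Control and 2.98, 4.73 and 18.1 in Sox9cKO) was among the larger differences that did not pass in either fit (adjusted p = 0.348).

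The other pore-forming subunits gave values in both directions. Cacna1d, an L-type pore, had 313, 231 and 347 normalized reads in Control and 118, 97.3 and 172 in Sox9cKO (log2 fold change -1.21, SE 0.258, adjusted p = 0.0585 without the block and 0.00698 with it). Cacna1a, the P/Q-type pore and the highest calcium channel pore per kilobase, had 388, 304 and 476 in Control and 680, 371 and 583 in Sox9cKO, with overlap (log2 fold change 0.46, adjusted p = 0.418). Alpha-2-delta subunits are extracellular proteins that raise the surface density of the pores, and 2 of 3 were tested. Cacna2d1 had 92.5, 251 and 123 in Control and 362, 827 and 652 in Sox9cKO (log2 fold change 2.02, SE 0.428, adjusted p = 0.0575 without the block and 0.00157 with it). Cacna2d2 had 39.5, 22.3 and 18.4 in Control and 6.96, 4.73 and 5.66 in Sox9cKO (log2 fold change -1.97, SE 0.411, adjusted p = 0.0553 without the block and 0.0289 with it). These 2 subunits thus had opposite directions, each without overlap between groups.

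**Figure D3:**
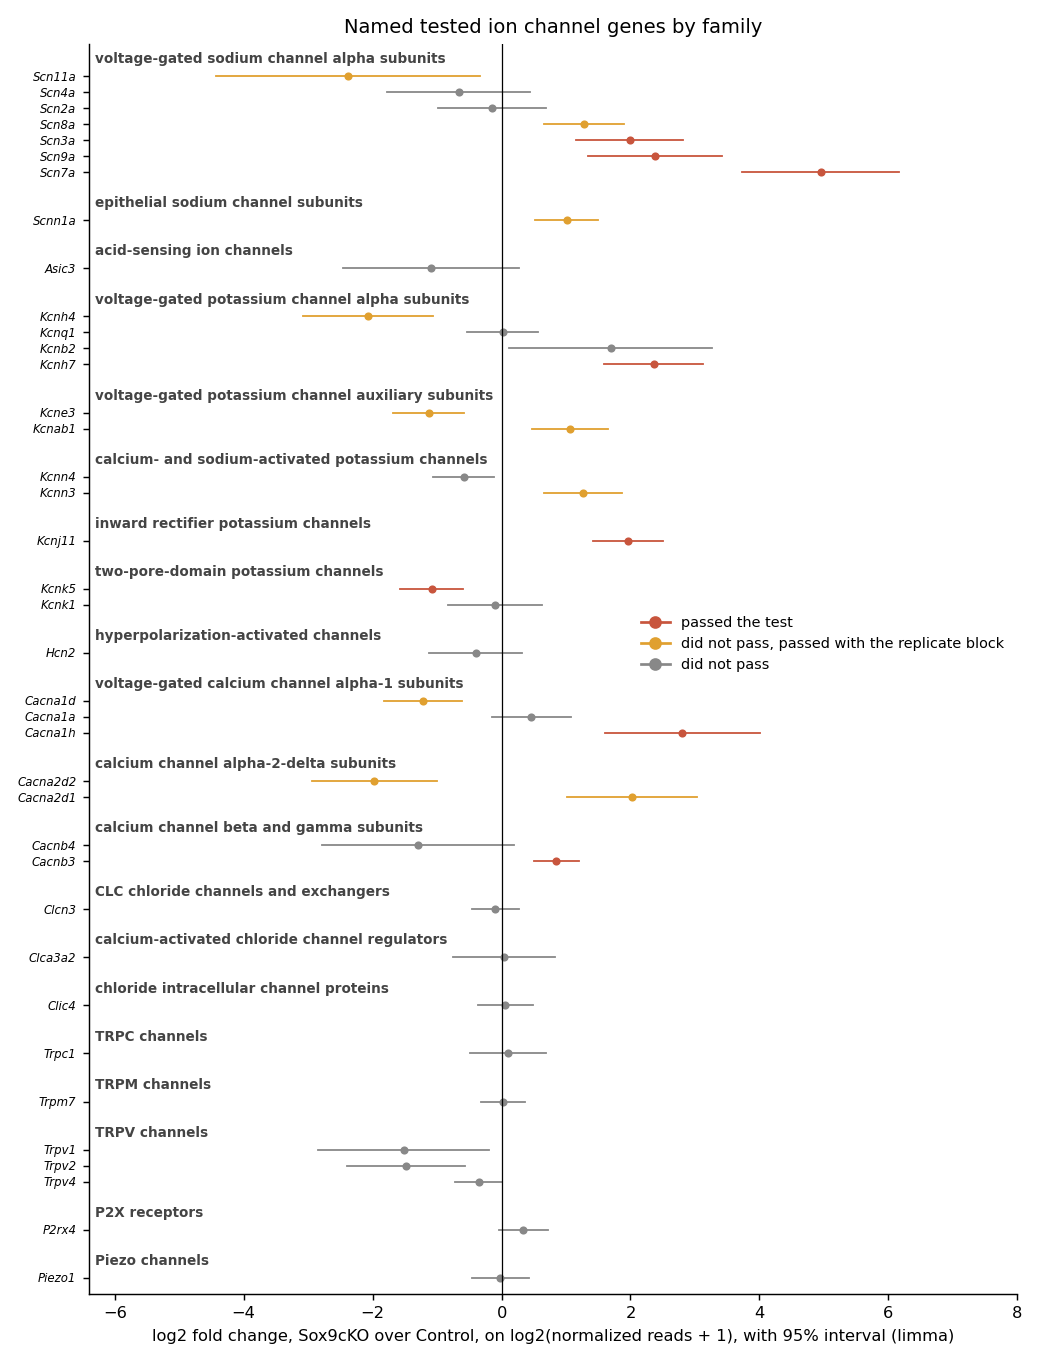
Log2 fold changes (horizontal axis, Sox9cKO over Control on log2(normalized reads + 1), points with 95% limma intervals) of tested ion channel genes named in the text, ordered within families. Red marks genes that passed, orange those that did not pass but did so with the replicate block and grey the rest; the chloride, TRP, P2X and Piezo families hold no red or orange point.

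Chloride channel genes included the most abundant members and gave no call. All 7 CLC genes, which encode plasma membrane channels and endosomal exchangers, and all 5 CLIC genes, which encode soluble proteins that can insert into membranes, were tested. In both families 0 passed with limma, with the block, with edgeR or with DESeq2, and 1 CLC gene (Clcn7) and 0 CLIC genes had an unadjusted p under 0.05. Clic4 was the most abundant of the 98 per kilobase, with 8890, 13889 and 13337 normalized reads in Control and 12053, 12653 and 12237 in Sox9cKO (log2 fold change 0.06, 95% interval -0.37 to 0.49, adjusted p = 0.906). Clcn3, the highest CLC gene, had 2070, 1641 and 1922 and then 1622, 1567 and 2094 (log2 fold change -0.10, 95% interval -0.46 to 0.26, adjusted p = 0.795). Clca3a2, of the CLCA proteins that modify calcium-activated chloride currents, had 89.9, 52.9 and 70.3 and then 62.7, 110 and 53.2 (adjusted p = 0.967).

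TRP channels are cation channels opened by heat, ligands, stretch or lipid signals, and of 18 genes in the TRPC, TRPM and TRPV families 13 were tested. None of the 13 passed with limma or edgeR, also not with the replicate block in limma, while 2 had an unadjusted p under 0.05 (both TRPV) and DESeq2 called 1, Trpv2. Trpm7, a magnesium and calcium channel fused to a kinase, was the highest, with 2304, 2369 and 2500 normalized reads in Control and 1976, 2600 and 2759 in Sox9cKO (adjusted p = 0.967). Trpv4, a channel of the biliary cilium that responds to osmotic change, had 232, 210 and 270 in Control and 191, 183 and 178 in Sox9cKO, without overlap (log2 fold change -0.36, SE 0.155, adjusted p = 0.291). Trpv2 (46.2, 69.6 and 51.8 in Control and 12.9, 16.1 and 32.8 in Sox9cKO) and Trpv1 (22.7, 31.6 and 34.6 and then 3.98, 9.45 and 21.5) were lower in every Sox9cKO sample, with log2 fold changes of -1.48 and -1.52 and adjusted p of 0.107 and 0.220. Trpc1 had 141, 150 and 224 and then 143, 178 and 228 (adjusted p = 0.889).

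P2X receptors are cation channels opened by ATP, which biliary cells release into bile, and Piezo channels are opened by membrane stretch. Of 7 P2X genes 4 were tested and 0 passed with limma, edgeR or DESeq2, with 1 at an unadjusted p under 0.05. P2rx4, the highest, had 196, 204 and 198 normalized reads in Control and 271, 280 and 212 in Sox9cKO, without overlap (log2 fold change 0.34, SE 0.16, adjusted p = 0.334). Piezo1 had 2103, 2942 and 2634 in Control and 2529, 3059 and 2025 in Sox9cKO (log2 fold change -0.02, 95% interval -0.46 to 0.43, adjusted p = 0.974).

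Some members varied between samples of 1 group far more than between groups. In both groups, replicate 2 had the highest endothelial marker sum, replicate 1 the next and replicate 3 the lowest. Of the 98 tested members 9 (9.18%) had that same order within both groups, beside 8.12% of all genes tested. Among these, Piezo2 and P2rx7 were chosen after their values were seen. Piezo2, the stretch channel of touch neurons, had 29.4, 270 and 15.0 normalized reads in Control replicates 1, 2 and 3 and 93.5, 215 and 26.0 in Sox9cKO. P2rx7, known from leukocytes, had 38.7, 123 and 5.76 and then 49.7, 87.9 and 17. Their adjusted p was 0.809 and 0.880, and their groups overlapped throughout. Scn3a also followed this order within each group, but its groups did not overlap. Its values in Sox9cKO replicates 1 and 3 were nearly equal, at 48.75 and 48.68. All 14 endothelial markers had a positive log2 fold change, with a median of 1.07, and 0 passed with limma, 1 had an unadjusted p under 0.05, 2 passed with the replicate block, and edgeR and DESeq2 called 0.

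**Figure D4:**
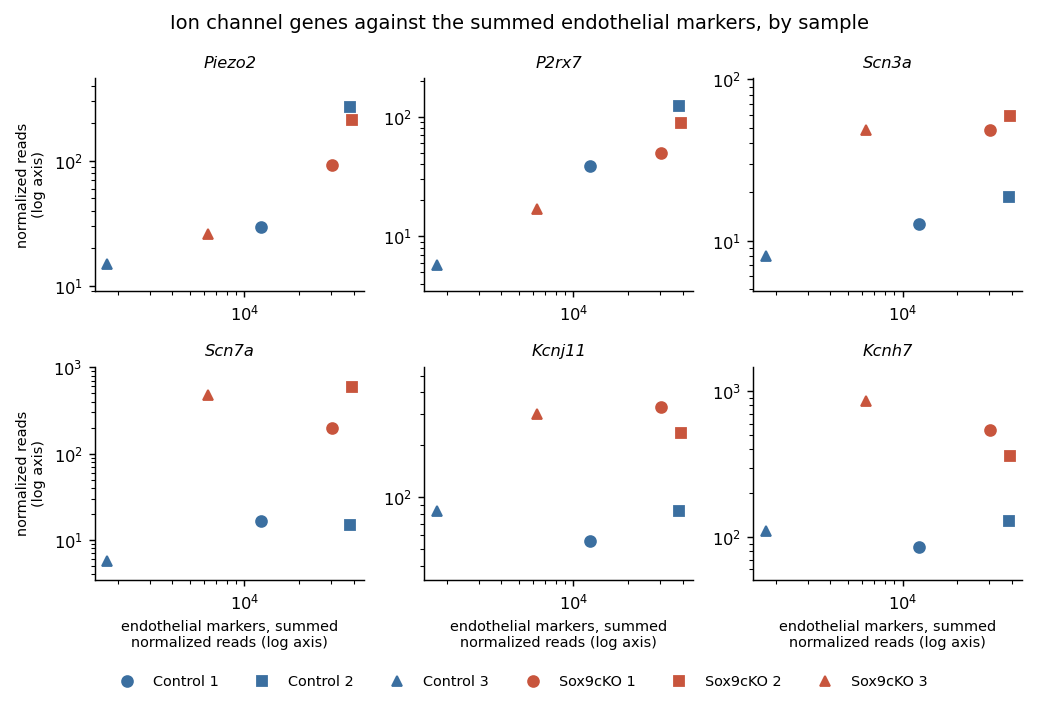
Normalized reads of single ion channel genes (vertical axis, log) against the summed normalized reads of 14 endothelial markers (horizontal axis, log) in the 6 samples, Control in blue and Sox9cKO in red. Piezo2, P2rx7 and Scn3a are highest in replicate 2 of each group, where the endothelial sum is 38468 and 39302. The groups are separate for Scn3a, Scn7a, Kcnj11 and Kcnh7 and overlap for Piezo2 and P2rx7.

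Genes under the filter leaned to lower values in Sox9cKO, in the members as in the table. Of the 69 ion channel genes with a mean under 10 normalized reads, 52 (75.4%) had a lower mean in Sox9cKO, beside 72.1% of all 8149 such rows. All Sox9cKO values lay below all Control values in 19 of the 69 (beside 19.7% of all rows under the filter) and above them in 1 (beside 3.07%). The number of genes with at least 1 read was 24568 to 25084 in the Control samples and 23743 to 24199 in the Sox9cKO samples, with no overlap. Among tested members with a mean of 10 to 50 normalized reads, 55.1% of 49 had a lower mean in Sox9cKO, beside 58.8% of all genes in that band. From 50 to 500 normalized reads the share with a lower mean was 31.4% of 35, beside 39.9%. From 500 upward the share was 57.1% of 14, beside 39.7%. The lower values of weakly counted members such as Scn10a, Scn1a and Scnn1b are therefore a direction they share with most rows at that depth.

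Channel genes outside the rule and channel partners were read from lists. Of 27 other chloride and anion channel genes 24 have values here and 16 were tested. Of these, 1 passed as higher and 1 as lower, beside 2.03% and 0.939% of all genes tested. With the replicate block 5 passed as higher and 1 as lower, beside 5.06% and 2.99%. The genes that passed without the block both belong to the Ttyh family of tweety proteins, which were described as chloride channels. Ttyh2 had 646, 770 and 858 normalized reads in Control and 1920, 2227 and 1454 in Sox9cKO (log2 fold change 1.29, SE 0.188, adjusted p = 0.0151, limma). Ttyh1 had 80.7, 64.0 and 50.7 and then 9.95, 3.78 and 3.40 (log2 fold change -3.41, SE 0.442, adjusted p = 0.0097), so the pair moved in opposite directions. The chief apical chloride channels of cholangiocytes are given for reference although the naming rule did not select them. Cftr had 2349, 910 and 3718 in Control and 1016, 2448 and 2744 in Sox9cKO (adjusted p = 0.967), and Ano1 had 3487, 3006 and 3176 and then 5405, 2014 and 4488 (adjusted p = 0.830), each with overlap.

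Of 37 other calcium and cation channel genes 33 have values here and 27 were tested, with 2 higher, 0 lower, and 5 higher and 2 lower with the replicate block. Orai1, the pore of store-operated calcium entry, had 84.9, 146 and 91.0 normalized reads in Control and 278, 240 and 220 in Sox9cKO (log2 fold change 1.23, SE 0.241, adjusted p = 0.0458, limma). Tpcn1, a lysosomal cation channel, had 329, 374 and 321 and then 521, 607 and 515 (log2 fold change 0.68, SE 0.135, adjusted p = 0.047). Both calls were close to the threshold. On the recovered reads edgeR called 1 gene of this list and DESeq2 called 5, beside 2.86% and 7.08% of all genes tested. Of 48 channel partners and regulators 45 have values here and 31 were tested, with 1 higher and 1 lower, and 3 higher and 2 lower with the block. For these lists too, the shares of all genes tested were 2.03% higher and 0.939% lower, and 5.06% and 2.99% with the block. Gem, a small GTPase that inhibits voltage-gated calcium channels through their beta subunits, had 418, 399 and 341 in Control and 945, 1020 and 781 in Sox9cKO (log2 fold change 1.24, SE 0.150, adjusted p = 0.00745). Ank2, an ankyrin that anchors channels to the spectrin skeleton, had 688, 623 and 516 and then 227, 241 and 254 (log2 fold change -1.33, SE 0.150, adjusted p = 0.0061). The groups of all 4 genes were free of overlap.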

How the data were processed

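Per the labels' protocols, total RNA was extracted with a micro-scale kit, depleted of ribosomal RNA and made into stranded libraries with molecular identifiers. The authors deposited a table of 25302 genes by 6 samples whose values are a signal: reads divided by a sample factor. Per the submitters' processing notes, the build was GRCm39 and DESeq2 1.36.0 was used. The aligner, the counter, its strand setting and the use of the identifiers are not given in the sources used here. All values of the deposited table came out as whole reads (100%, within 0.001 of a read) after multiplication by factors equal to DESeq2's median of ratios. Every row held at least 10 reads in all.

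Here, limma 3.58.1 (two-sided, intensity trend, R 4.3.3) was run on log2(value + 1) for genes with a mean of at least 10, with p-values adjusted by Benjamini-Hochberg and a threshold of 0.05, after a check on simulated data. Alternatives were a pseudocount of 0.1 or 5, no filter, a minimum mean of 50, TMM or quantile scaling, no trend, edgeR 4.0.16 and DESeq2 1.42.0 on the recovered reads, the replicate block, and leaving out each sample. Exon lengths for levels per kilobase came from GENCODE's annotation of GRCm38 and were found for all 167 members. Samples with the same number in their titles deviated from their group means together (correlations 0.207, 0.472 and 0.542), so the numbers were taken to pair samples. Between samples of different number the correlations ran from -0.437 to 0.0476. The labels do not say what same-numbered samples share, so the replicate block rests on a pairing inferred from these same data. Members, families and lists were chosen with earlier results of these data known. Genes named were all Scn and Scnn1 rows, every member that passed with or without the block, the member highest per kilobase in each family, the 5 largest differences that passed in neither fit, and up to 5 genes that passed in each list of other channels and partners. Some genes that this rule takes are not reported here. The lists of markers covered biliary, hepatocyte, endothelial, leukocyte, stellate, smooth muscle, glial and neuronal, neuroendocrine and mesothelial cells. Neuroendocrine markers (6 of 10 with values) summed to 65.0 to 85.7 normalized reads in Control and 50.1 to 63.7 in Sox9cKO. Of these 6 genes 5 were under the filter, and 4 of the 5 had a lower mean in Sox9cKO, beside 72.1% of all rows under the filter. Pcsk1, the 1 tested, did not pass (adjusted p = 0.867, limma). Marker genes that passed were Krt7 among biliary, Tat and Serpina1c among hepatocyte, Csf1r among leukocyte and Msln among mesothelial markers, all higher in Sox9cKO.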

Additional observations from a re-analysis of the deposited data

How the results depend on the processing

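Scn7a, Kcnj11 and Sox9 kept their direction and their call in all 17 alternatives, with the log2 fold change of Scn7a between 4.51 and 5.42. The number of ion channel genes that passed (9) was 19 with DESeq2, 19 with the replicate block and 17 with edgeR and the replicate block, and 3 to 7 when 1 sample was left out (3 without Control 1, 4 without Control 3, 5 without Sox9cKO 2 or Sox9cKO 3). Over all genes the 510 became 1214, 1381 and 1160 in those same 3 fits and 199 to 387 with 1 sample left out. The cause of these shifts was not tested. The fits with 1 sample left out differ both in the number of samples and in which sample is missing. Cacnb3 also lost its call with quantile scaling, and Cacna1h and Kcnk5 without the intensity trend. Beyond the calls given in the report, the replicate block in limma changed no call of a named ion channel gene. With edgeR and the replicate block, Scnn1a (adjusted p = 0.0501) and Kcnn3 (adjusted p = 0.0510) did not pass. TMM and quantile scaling moved the share of higher calls among all calls from 68.4% to 63.3% and 60.6%. Sign changes were seen in 8 named genes, none of which passed. With TMM factors the log2 fold change was -0.0012 for Clca3a2, -0.030 for Kcnq1 and -0.026 for Trpm7. With quantile scaling it was -0.015 for Clca3a2, -0.090 for Kcnq1, 0.13 for Scn2a, -0.019 for Trpc1 and -0.081 for Trpm7. With edgeR it was -0.014 for Clic4 and -0.011 for Trpm7, with DESeq2 -0.0070 for Clic4 and -0.0051 for Trpm7, and with edgeR and the replicate block -0.028 for Kcnq1 and -0.026 for Trpm7. With 1 sample left out it ranged from -0.26 to 0.25 for Clca3a2, -0.14 to 0.18 for Clic4, -0.41 to 0.25 for Kcnk1, -0.24 to 0.21 for Kcnq1, -0.16 to 0.13 for Piezo1, -0.075 to 0.30 for Trpc1 and -0.076 to 0.16 for Trpm7. With no filter on low values all 167 ion channel genes were fitted and 11 passed (9 higher, 2 lower), 9 of them the same genes. Depth limits the 69 genes under the filter, whose means are below 10 normalized reads.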
